A study of Mus musculus with 12 samples.

Results

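Wild-type line 3 is 1 of 6 mouse cell lines that were derived from tumours and profiled on Illumina bead arrays. It was represented by 2 of the 12 arrays, and it was compared with the 10 arrays of the 5 other lines. The members were the columns labelled as wild-type STAT3 cell line 3, and their 2 arrays were averaged before the comparison. The other lines were wild-type lines 1 and 2, and lines 1, 2 and 3 carrying constitutively active STAT3, called active lines here. The labels give no strain, age, tissue of the tumours or treatment, and all lines were kept under the same culture conditions in RPMI medium with foetal calf serum. Each line is a single derivation, and the labels leave unsaid whether its 2 arrays had RNA of separate cultures. The question taken from the design is how far this tumour line stood apart from the other lines, of either STAT3 genotype.

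STAT3 carries signals of IL-6 family cytokines and other receptors, through JAK kinases, to the genes it binds, and the active form in this series is labelled as constitutively active. Interferons act in part through interferon regulatory factors. These bind short GAAA-rich elements upstream of genes that restrict viruses and present antigen. The tumour suppressor p53 is a transcription factor that raises genes for cell cycle arrest, DNA repair and cell death.

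A probe was called detected where its deposited detection fraction was above 0.99. Of 46632 probes an array detected 11002 to 12798, and the arrays of wild-type line 3 had 11478 and 12071. A gene was tested if a probe of it was detected on both arrays of at least 1 line, which gave 7929 genes, of which 21 passed only through wild-type line 3. Levels are normalized signals on the log2 scale, and levels of different genes are not compared. The 2 arrays of wild-type line 3 correlated at 0.9977 across genes with a median absolute difference of 0.0873, against 0.9937 to 0.9969 and 0.107 to 0.126 for the other lines. In active line 2 the 2 arrays differed by more than 1 log2 unit in 41 genes, and 16 of these were interferon-stimulated genes, so results on those genes are given below with and without each of its arrays. The epithelial keratin genes Krt8 and Krt18 had means of 13.67 and 13.44 in wild-type line 3. Of 18 leukocyte markers on the array Cd14 was the only one detected there. Of 8 fibroblast markers Pdgfra was detected, of 13 endothelial markers Kdr, Flt1 and Plvap were, and of 9 adipocyte markers none was. In RNA from a whole culture, fewer cells of a type and less RNA per cell cannot be told apart.

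The sequences shown first belong to 5 interferon-stimulated genes whose mean was the highest of the 6 lines in wild-type line 3, the list with the widest shift in this line. The gap to the nearest line was only 0.04 log2 units for Gbp3, 0.08 for Gbp7 and 0.05 for Igtp. In all 5 genes array 2 of active line 2 read above both arrays of wild-type line 3. All 5 hold the motif marked below, and other members with the highest mean, such as Ifi27, are not shown. Each run holds the 250 bases before the transcription start in RefSeq's GRCm38.p6 annotation, written 5′ to 3′ on the strand of the gene. Capitals mark a form of the interferon-stimulated response element on either strand, a pair of GAAA blocks with 2 bases of any kind between them, and overlapping matches are joined.
Bst2, chr8:71537473-71537722, minus strand: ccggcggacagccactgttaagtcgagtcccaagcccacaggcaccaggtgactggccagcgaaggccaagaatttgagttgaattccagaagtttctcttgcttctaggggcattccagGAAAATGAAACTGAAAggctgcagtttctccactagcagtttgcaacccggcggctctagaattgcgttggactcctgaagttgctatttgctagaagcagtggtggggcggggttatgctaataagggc
Gbp3, chr3:142559794-142560043, plus strand: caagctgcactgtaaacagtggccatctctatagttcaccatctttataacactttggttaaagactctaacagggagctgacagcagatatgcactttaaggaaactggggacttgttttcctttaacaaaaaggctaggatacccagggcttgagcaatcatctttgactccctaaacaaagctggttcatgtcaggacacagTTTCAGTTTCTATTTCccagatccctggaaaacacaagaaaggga
Gbp7, chr3:142530086-142530335, plus strand: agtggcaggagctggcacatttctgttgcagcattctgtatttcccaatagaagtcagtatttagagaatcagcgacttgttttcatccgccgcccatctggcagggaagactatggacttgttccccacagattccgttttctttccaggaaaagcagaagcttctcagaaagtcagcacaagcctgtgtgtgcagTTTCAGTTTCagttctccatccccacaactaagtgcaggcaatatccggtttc
Igtp, chr11:58199306-58199555, plus strand: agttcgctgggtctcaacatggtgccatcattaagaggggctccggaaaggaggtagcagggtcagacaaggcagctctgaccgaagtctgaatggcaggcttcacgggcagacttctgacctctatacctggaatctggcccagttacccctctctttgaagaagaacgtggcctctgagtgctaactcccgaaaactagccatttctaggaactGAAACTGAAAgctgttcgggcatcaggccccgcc
Irgm1, chr11:48871421-48871670, minus strand: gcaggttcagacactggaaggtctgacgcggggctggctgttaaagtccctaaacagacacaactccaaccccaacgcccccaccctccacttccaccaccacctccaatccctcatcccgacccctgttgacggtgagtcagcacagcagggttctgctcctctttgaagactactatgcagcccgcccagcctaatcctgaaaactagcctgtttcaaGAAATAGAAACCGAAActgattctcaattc
The genes code for Bst2 (tetherin, which holds budding virus at the cell surface), the guanylate-binding proteins Gbp3 and Gbp7, and the immunity-related GTPases Igtp and Irgm1, which act on membranes around intracellular pathogens. Among the 26 tested interferon-stimulated genes, 21 were matched by symbol to windows from 250 bases before to 50 after the start, and 10 of these (47.6%) held the motif on either strand. It was found in 228 of 6474 matched tested genes (3.52%) and in 1131 of all 32851 windows (3.44%). A match describes the letters in the window and shows no binding.

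Wild-type line 3 had the smallest share of genes in which a line was the highest of the 6. Its mean was the highest of the 6 lines in 794 of 7929 genes (10%) and the lowest in 1077 (13.6%). In the other lines these shares lay between 14.3% and 27.0% for the highest, and from 11.7% to 22% for the lowest. It was closest to active line 2 and not to a line of its own genotype: the correlation of line means across genes was 0.984 with active line 2, 0.975 with active line 1, 0.964 and 0.962 with wild-type lines 1 and 2, and 0.943 with active line 3. Between the arrays of wild-type line 3 and those of active line 2, 693 genes were higher and 773 lower at an adjusted p under 0.05 in limma (8.74% and 9.75%), and 158 of these differed by over 1 log2 unit. Against active line 3 the counts were 1741 higher and 2077 lower (22% and 26.2%), with 817 over 1 log2 unit. Against wild-type line 1 they were 978 and 775 (12.3% and 9.77%), against wild-type line 2 they were 1441 and 1527 (18.2% and 19.3%), and against active line 1 they were 1104 and 1035 (13.9% and 13.1%). The spread behind these p-values is that of 2 arrays within a line, which may be technical, and the 5 comparisons share the arrays of wild-type line 3.

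With the line as the replicate, 1 line against 5 in limma, none of the 7929 genes passed an adjusted p of 0.05 (0%). At an unadjusted p under 0.05 there were 42 higher and 48 lower genes, which is 0.53% and 0.605%. The lone line is assumed there to vary like the others, and an exact permutation of 1 line among 6 cannot go below p = 0.167. Stat3 itself was 12.83 and 12.69 on the arrays of wild-type line 3 and 11.35 to 12.80 on the other arrays, with a median of 12.42. Its difference from the mean of the other lines was 0.42 (SE 0.48) and the groups overlapped. A second kept probe of Stat3 was 0.64 above that mean. Its line mean was 11.19 in wild-type line 3 and 9.81 to 11.16 in the other lines.

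A second comparison asked which genes separated wild-type line 3 from each of the other lines. A gene was called when all 5 contrasts in a limma fit of the 12 arrays passed an adjusted p of 0.05 in the same direction. This called 42 genes higher (0.53%) and 57 lower (0.719%), 99 in all (1.25%). The gap to the nearest other line had a median of 0.53 log2 units over the higher and 0.44 over the lower genes, and it was over 1 for 5 higher (0.0631%) and 4 lower genes (0.0504%). Of the lower genes 11 were not detected on either array of wild-type line 3, so their gaps are differences from a signal at background and order no genes. Of the higher genes 4 were detected in wild-type line 3 alone and entered the test only through it. Others with few detections elsewhere, such as Abcc1, may also have entered only through it. With detection required in at least 3 lines, 39 higher genes were called. The call used the spread between arrays, and leaving out 1 array of wild-type line 3 left 15 to 20 higher and 20 to 28 lower genes. Without active line 2, the line nearest to it, the counts were 167 and 189, and 41 and 55 of the genes above were among them. Without wild-type line 1 they were 78 and 108, without active line 3 they were 68 and 74, and without array 1 of active line 2 they were 28 and 32. Without array 2 of active line 2 they were 68 and 71. With median scaling in place of quantile normalization 15 and 11 genes were called, 10 and 9 of them among those above. Of the called genes described here, that setting ended the calls of Chil1, Wnt5b, Cx3cl1, Zfp597, Chst1, Tspan6, Surf6, Polr1b, Pwp2, Heatr1, Tigar, Trp53inp1, Rngtt, Map3k7 and Rusc2 among the lower genes, and of Psca, Inhbb, Prss8, Lamc1, Ptn, Nckap5l, Ramp2, Ifi27 and H2-Q6 among the higher ones. With the deposited log2 values Tspan6, Ctsw, Nckap5l, Ramp2, Surf6 and Map3k7 lost their calls.

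The widest separation was downward. Enpp5, a membrane-bound member of the ectonucleotide pyrophosphatase family, read 5.25 and 5.33 on the arrays of wild-type line 3, where it was not well above background. On the other 10 arrays it was detected throughout, at 8.52 to 9.96 with a median of 9.76. All 10 arrays lay over 3 log2 units above both arrays of wild-type line 3, and Enpp5 was at least 10.1-fold lower there than the mean of the other lines. The fold is a bound, taken against the lowest signal of detected probes, and the largest of the 5 adjusted p-values was 2.9e-10. Pdxdc1, which codes for a protein with a pyridoxal-dependent decarboxylase domain, read 6.09 and 6.22 against 9.24 to 9.99, with a median of 9.79. It had the smallest adjusted p of the comparison of 1 line with 5, at 0.0526, with a difference of -3.57 (SE 0.25). A second probe of Pdxdc1 had a mean of 6.13 in wild-type line 3, 3.20 below the mean of the other lines. The other 2 kept probes of this gene were 0.22 and 0.54 above the mean of the other lines, so the probes of this gene disagreed in direction. Nat8f4, of the N-acetyltransferase 8 family, was undetected at 5.20 and 5.32 and was 7.78 to 8.50 on the other arrays, at least 3.93-fold lower than their mean. The Nat8 genes are close copies, so its probe may also read relatives.

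Rims2, a scaffold of regulated exocytosis, read 4.77 and 4.72 and was undetected in wild-type line 3, at least 1.77-fold lower than the mean of the other lines. It was 5.66 to 7.61 on the other arrays, and against wild-type line 2, the nearest line, no fold could be bounded above 1. Slit2, a secreted ligand of Robo receptors, read 7.59 and 7.45 against 8.31 to 9.44 with a median of 9.02, a gap of 0.91 (adjusted p at most 0.0016). All 10 other arrays were above both arrays of wild-type line 3. Chil1, a secreted chitinase-like protein, read 13.23 and 13.21 against 13.79 to 14.52, a gap of 0.59 (adjusted p at most 0.0022). The Wnt ligand gene Wnt5b read 9.79 and 9.97 against 10.28 to 11.01. Cx3cl1, the membrane-bound chemokine fractalkine, had a mean gap of 0.36 below the nearest line (adjusted p at most 0.012).

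Cyp2d22, a cytochrome P450 gene, was undetected in wild-type line 3 at 5.76 and 5.73 and ranged over the other arrays from 6.28 to 10.76 with a median of 6.92 and with the highest values in active line 3. It was at least 2.86-fold lower than the mean of the other lines and at least 1.14-fold lower than the nearest line. A second probe of Cyp2d22, also undetected there, was 0.15 below that mean. Zfp597, a zinc finger gene, read 7.31 and 7.32 against 7.74 to 8.33, and Chst1, a carbohydrate sulfotransferase, 7.16 and 7.24 against 7.72 to 9.83. The receptor gene Gpr176, Arhgap4, the tetraspanin gene Tspan6 and the cathepsin gene Ctsw completed the 12 lower genes picked by the measured gap. All 4 were undetected in wild-type line 3, so the measured gap gives them no rank. Against the nearest line Ctsw was at least 1.10-fold lower, and for Gpr176, Arhgap4 and Tspan6 no fold could be bounded above 1. Of genes picked after their values were seen, Polr1b, a subunit of RNA polymerase I, was lower by 0.39 than the nearest line, Pwp2 by 0.38 and Heatr1 by 0.33, and the latter are processing factors of ribosomal RNA. Their largest adjusted p-values lay between 0.028 and 0.035.

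**Figure D1:**
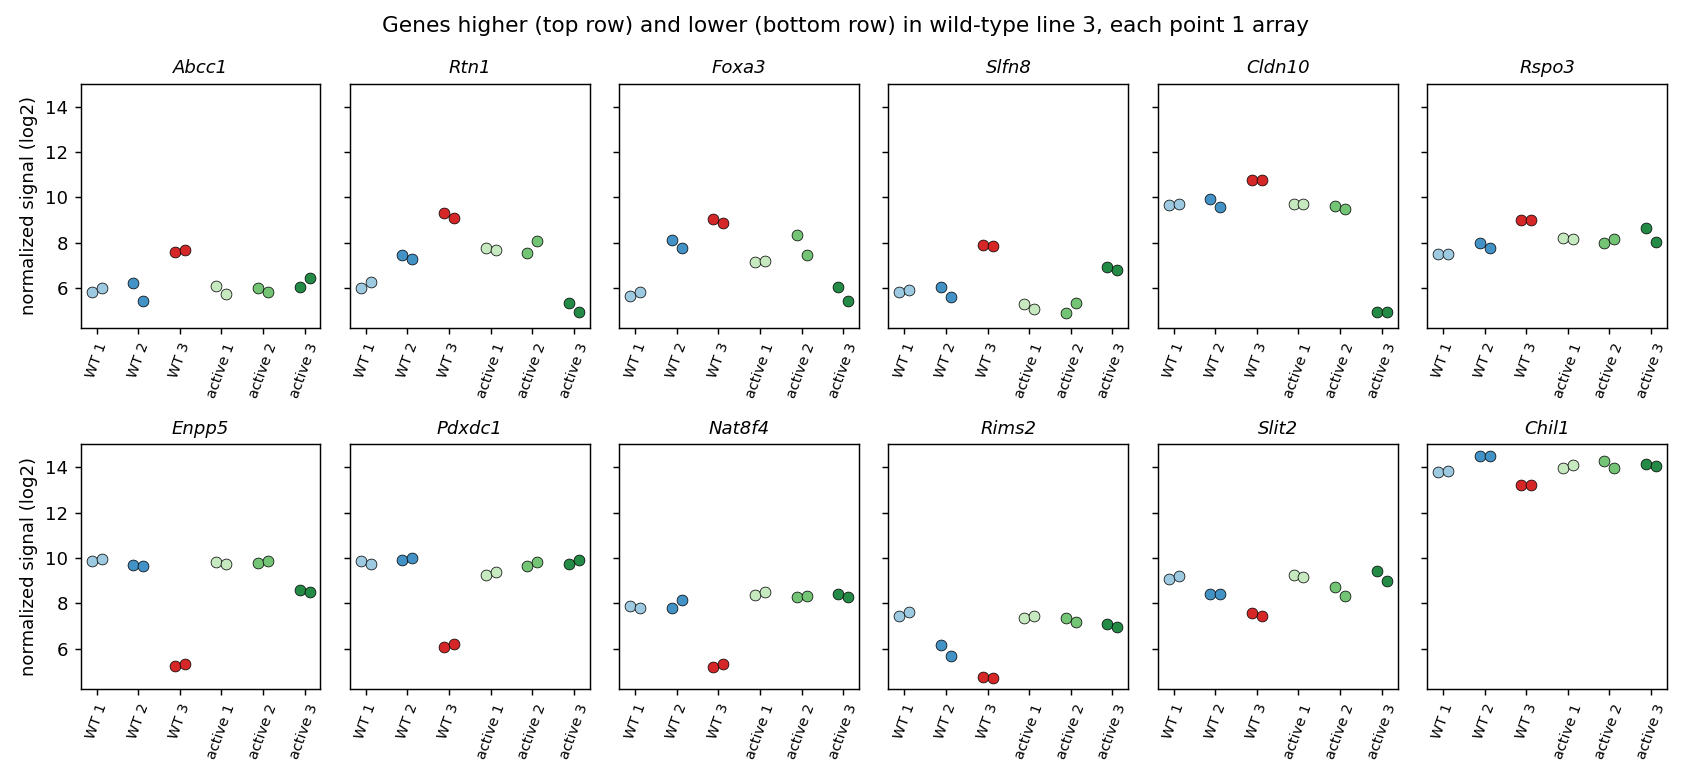
Normalized log2 signal (vertical axis) of 6 genes higher and 6 genes lower in wild-type line 3, by line (horizontal axis), each point 1 array. The 2 red points of wild-type line 3 lie above all 10 others in the top row, by a gap of line means of 1.40 for Abcc1 and 0.67 for Rspo3, and below them in the bottom row, by 0.59 for Chil1 and, as a bound against background, at least 5.07-fold for Enpp5.

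Upward, the widest gaps were those of Abcc1 and Rtn1. Abcc1, an exporter of glutathione conjugates and drugs, read 7.60 and 7.68 on the arrays of wild-type line 3 and 5.45 to 6.44 on the other arrays, with a median of 6.02. It was detected on 2 of those 10 arrays, and its gap to the nearest line was 1.40 log2 units or 2.64-fold (adjusted p at most 4.4e-04). With so few detections Abcc1 may have entered the test only through wild-type line 3, and a filter of detection in at least 3 lines leaves it out. Further probes of Abcc1 were detected on none of the arrays. Rtn1, a reticulon of the endoplasmic reticulum membrane, read 9.31 and 9.08 against 4.95 to 8.05 with a median of 7.37. Its gap of 1.39 corresponds to 2.63-fold (adjusted p at most 3.6e-04). Active line 2 was the nearest line, and Rtn1 was lowest in active line 3.

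Foxa3, a forkhead transcription factor, read 9.03 and 8.88 against 5.44 to 8.33, and the schlafen gene Slfn8 read 7.91 and 7.84 against 4.90 to 6.95. Their gaps were 1.02 and 1.01, each 2.0-fold. Slfn8 has close relatives in the schlafen cluster, and its probe may read more than 1 of them. Cldn10, a claudin of tight junctions, read 10.74 and 10.76 against 9.47 to 9.93 on 8 of the other arrays and 4.93 and 4.94 on those of active line 3. A second probe of Cldn10 had a mean of 8.86 in wild-type line 3 and at most 7.73 elsewhere. The gap for Cldn10 was 1.01 with an adjusted p of at most 5.7e-05, and the gene was bright in the 4 lines nearest to it.

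Itih2, a heavy chain of the inter-alpha-trypsin inhibitor, read 7.68 and 7.77 against 5.16 to 6.89. Msln, the surface protein mesothelin, read 7.63 and 7.72 against 5.32 to 6.97, and Psca, a GPI-anchored protein of the Ly6 family, 7.47 and 7.56 against 5.98 to 6.75. In each of them both arrays of wild-type line 3 lay above all other arrays. Rspo3, a secreted amplifier of Wnt signalling, read 9.02 and 8.99 against 7.49 to 8.64 (gap 0.67, adjusted p at most 0.0056). Inhbb, the beta-B subunit of activin and inhibin, read 9.36 and 9.45 against 7.96 to 8.86 (gap 0.65, adjusted p at most 0.036). Prss8, the membrane protease prostasin, read 9.90 and 9.80 against 9.13 to 9.61, and Lamc1, the laminin gamma-1 chain, was 0.26 above the nearest line.

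Detection split 12 genes between wild-type line 3 and all others. Ptn (the growth factor pleiotrophin), Nckap5l, Ramp2 (a receptor activity-modifying protein), Xkr5, Ttc36 and Prss16 were detected on both of its arrays and on none of the 10 others (6 of 7929 genes, 0.0757%). All of them were dim. Ptn read 6.67 and 6.37 and was at least 1.27-fold higher than the mean of the other lines, and the bounds of Nckap5l, Ramp2, Xkr5 and Ttc36 lay between 1.13 and 1.18. Prss16 had a mean of 6.23, below the 6.30 of active line 1, where it was undetected. Ttc36 and Prss16 were not called in the comparison with each line. Enpp5, Nat8f4, Cyp2d22, Ovol1, Surf6 and Aoc2 showed the reverse pattern (6 of 7929 genes, 0.0757%), of which Ovol1 and Aoc2 were not called.

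Interferon-stimulated genes were higher in wild-type line 3 than the mean of the other lines as a group. Active line 3 had like levels, and so did active line 2 in the mean of its 2 unlike arrays. All 26 tested members lay above that mean, against 48.2% of all tested genes, and the median difference was 1.00 against -0.01 over all genes. It was 0.57 with the deposited log2 values and 0.67 without background correction, with all 26 members above the mean in both. The list has 40 genes on the array, and 2 of the 26 passed the filter only through wild-type line 3. The mean of wild-type line 3 was the highest of the 6 lines in 15 of 26, against 10% of all genes. In the comparison with each line 1 of 26 was called, Ifi27, against 0.53% of all genes called higher, and none was called when either array of wild-type line 3 was left out. In the comparison of 1 line with 5, 2 of 26, Parp14 and Dhx58, were higher at an unadjusted p under 0.05. Of all genes 0.53% were. Ifi27, a small interferon-induced membrane protein, read 10.68 and 10.71 against 8.86 to 10.31 with a median of 9.85, a gap of 0.43 (adjusted p at most 0.034).

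The comparisons with single lines gave the shape of this difference. Against wild-type line 1 the median member was 1.89 higher and 23 of 26 passed (12.3% of all genes), and against active line 1 it was 1.55 higher and 24 of 26 passed (13.9% of all genes). Against wild-type line 2 the median was 0.86 with 11 passing (18.2% of all genes). Against active line 2 it was 0.22 with 2 passing upward and 1 downward, and against active line 3 0.15 with 4 upward and 2 downward. Upward calls over all genes were 8.74% and 22% there, so the members' shares were near or below the background. Wild-type line 1 and active line 1 were thus the lines with the lowest levels. Those of wild-type line 3 were near active line 3 and near the mean of active line 2, whose arrays differed.

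Active line 2 held both a low and a high array. Its array 2 was above its array 1 in 25 of 26 interferon-stimulated genes, with a median difference of 1.35 and a largest of 2.40, while the median array difference lay between -0.22 and 0.02 in the 5 other lines. Bst2 read 12.71 and 12.46 in wild-type line 3, 11.19 and 12.98 on the arrays of active line 2, and 8.80 to 11.77 on the 8 remaining arrays. Dhx58, a helicase of the RIG-I family, read 8.98 and 8.76, then 7.16 and 8.96 in active line 2, and 6.75 to 8.16 elsewhere. Irgm1 read 10.65 and 10.56, then 9.59 and 10.74, and 8.67 to 10.01 elsewhere. Wild-type line 3 was above array 1 of active line 2 in 24 of 26 members (median 0.97) and above array 2 in 7 of 26 (median -0.27). Without array 2, 9 of 26 members were called higher than each line, Gbp3, Irgm1, Ifi35, Ifi27, Dhx58, Bst2, Parp14, Trim25 and Lgals3bp. Over all genes 68 of 7929 were called higher there. Without array 1, Ifi27 alone was called, against 28 of 7929 genes, and wild-type line 3 was the highest of the lines in 7 of 26. Without active line 2 the count called was 11 of 26, against 167 of 7929 genes. That all 26 members lay above the mean of the other lines held in each of these settings. Culture state and hybridisation of the 2 arrays are not recorded in the labels, and their part in the result was not tested.

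**Figure D2:**
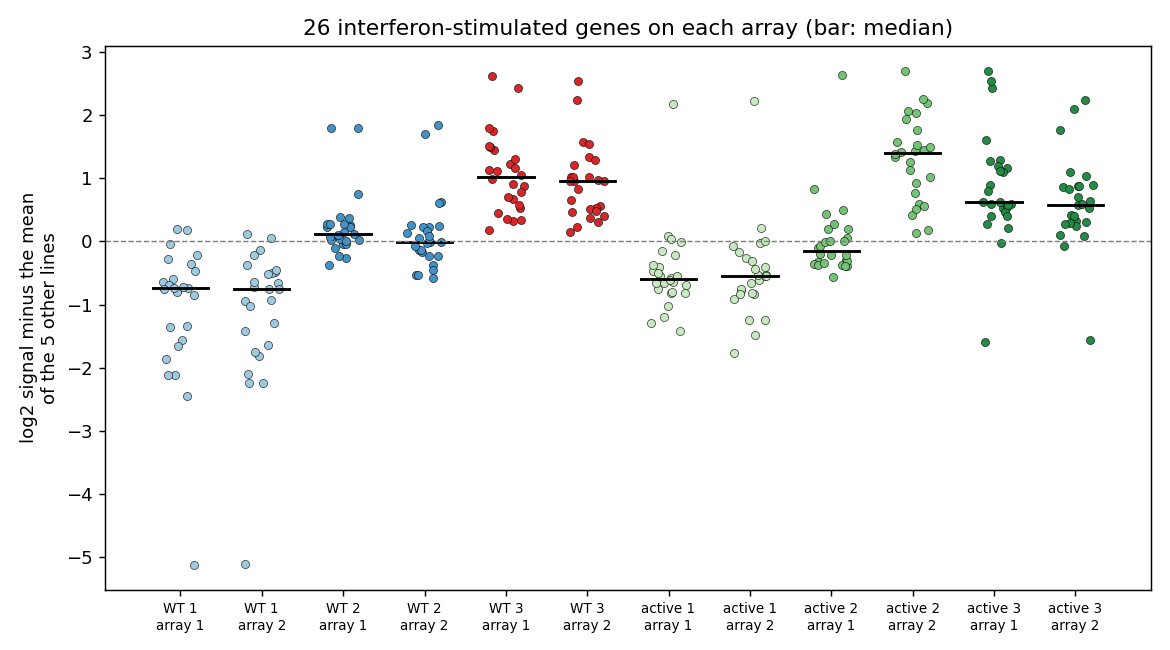
Log2 signal of the 26 tested interferon-stimulated genes minus the mean of the 5 lines other than wild-type line 3 (vertical axis), on each of the 12 arrays (horizontal axis), each point 1 gene and the bars the medians. The medians of wild-type line 3 were 1.02 and 0.96, those of active line 2 were -0.15 on array 1 and 1.40 on array 2, and those of wild-type line 1 were -0.74 and -0.75.

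Genes of MHC class I and antigen processing, which interferon also raises, had 16 of 20 tested members above the mean of the other lines. Over all tested genes that share was 48.2%, and the median difference of the list was 0.30. In 8 of 20 wild-type line 3 was the highest of the 6 lines, against 10% of all genes. In the comparison with each line 1 of 20 was called, against 0.53% of all genes called higher. This was H2-Q6, a class Ib heavy chain. It read 9.99 and 9.92 against 7.81 to 9.38 with a median of 9.02 (gap 0.70, adjusted p at most 0.0038), and a second probe of it was also highest, at 8.50 against at most 7.77. The class I genes are close copies and their probes may read more than 1 of them. H2-T23 had a gap of 0.54 and missed the threshold at an adjusted p of 0.052. With median scaling in place of quantile normalization 3 of 20 were the highest. The 4 tested MHC class II genes were all below the mean of the other lines, but their median difference was -2.37 from wild-type line 2 and between -0.349 and -0.003 from the other 4 lines. Cd74 read 4.73 and 4.81 in wild-type line 3, where it was undetected.

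Genes of the p53 pathway were lower. Of 24 tested members 20 lay below the mean of the other lines, against 51.8% of all tested genes, with a median difference of -0.58, and 9 of 24 had their lowest mean in wild-type line 3 against 13.6% of all genes. In the comparison with each line 2 of 24 were called, both lower, against 0.719% of all genes. Without array 1 of wild-type line 3 Tigar alone was called, and without its array 2 Trp53inp1 alone. Tigar, a regulator of glycolysis that p53 induces, read 8.73 and 8.63 against 9.03 to 9.60 with a median of 9.11 (gap 0.37, adjusted p at most 0.0064). Trp53inp1, a p53-induced stress protein, read 8.46 and 8.58 against 8.85 to 9.94 (gap 0.37, adjusted p at most 0.016). Neither array of wild-type line 3 overlapped with other lines in these genes. Trp53inp1 also lies in the stretch of chromosome 4 described below, where 41% of tested genes had their lowest mean in wild-type line 3.

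In other p53 genes active line 2 was low as well. Cdkn1a, the cell cycle inhibitor p21, read 11.36 and 11.29 in wild-type line 3, 11.54 and 11.49 in active line 2, and 12.02 to 12.43 on the arrays of the other 4 lines. Aen, a p53-induced nuclease, read 7.20 and 6.93, then 7.53 and 7.19, and 7.75 to 8.23 elsewhere. Zmat3, an RNA-binding protein, read 7.53 and 7.83, then 7.97 and 7.59, and 8.51 or more elsewhere. In Mdm2, the ubiquitin ligase of p53, and in Ccng1, cyclin G1, active line 2 was lower than wild-type line 3: for Ccng1 the means were 11.22 and 11.81, against 12.52 to 12.82 in the other 4 lines. Without active line 2, 8 of 24 members were called lower than each remaining line, Cdkn1a, Mdm2, Ccng1, Zmat3, Aen, Trp53inp1, Tigar and Sfn. Over all genes 189 of 7929 were called lower in that setting. Xpc, a DNA repair gene of the list, went the other way at 10.03 and 10.08, 0.08 above the nearest line (adjusted p at most 0.59). Against wild-type line 2 and active line 3, 16 and 17 of the 24 members were lower at an adjusted p under 0.05, and against active line 2 6 were. The shares of all genes called lower were 19.3%, 26.2% and 9.75%.

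**Figure D3:**
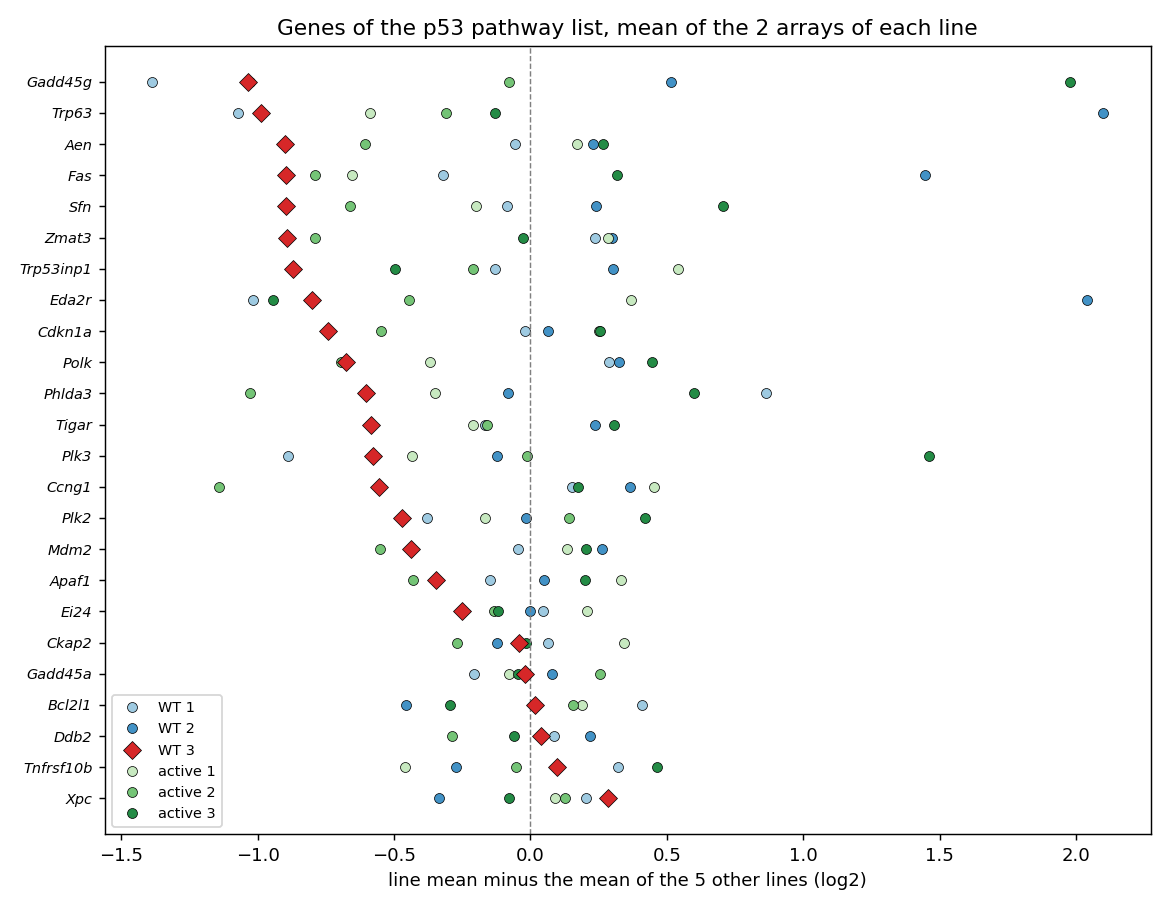
Line means of the 24 tested genes of the p53 pathway list minus the mean of the 5 lines other than wild-type line 3 (horizontal axis, log2 units), 1 row per gene. Red diamonds are wild-type line 3 and lie left of 0 in 20 of 24 rows, and active line 2 lies near or beyond them in Ccng1, Mdm2 and Cdkn1a.

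Smaller shifts were seen in other lists, mostly with no member called. Mitosis genes were above the mean of the other lines in 26 of 29, with a median difference of 0.22, and 8 were highest of the 6 lines. Over all tested genes 48.2% lay above that mean and 10% were highest. Examples are Bub1b, a spindle checkpoint kinase, at 8.86 and 9.04 with a difference of 0.43, and Cdc20, an activator of the anaphase-promoting complex, at 0.37. Their gaps to the nearest line were only 0.19 and 0.11 (adjusted p at most 0.39 and 0.54). Against active line 2 14 of 29 mitosis genes passed as higher and 2 as lower, where 8.74% and 9.75% of all genes did. Against the other lines 1 to 6 passed as higher, where 12.3% to 22% of all genes did, and 1 to 3 as lower, where 9.77% to 26.2% did. Against wild-type line 2 there were 1 higher and 3 lower. Nuf2, a kinetochore gene undetected in wild-type line 3, was an exception at 5.24 and 5.21. Genes of DNA replication and nucleotide synthesis were above the mean in 10 of 37, with a median difference of -0.05. Genes of oxidative phosphorylation were above it in 37 of 47, with a median of 0.07, but in 23 of 47 with median scaling. Genes of protein folding in the endoplasmic reticulum were above it in 15 of 22, with a median of 0.20. Hsp90b1, a chaperone of this compartment, read 11.96 and 11.99 there, 0.27 above the nearest line (adjusted p at most 0.27). Genes of the NF-kB pathway were below the mean in 13 of 17, with a median of -0.28, which was -0.15 without active line 3 and -0.16 with the deposited log2 values. Tnfaip3, an inhibitor of the pathway, read 7.28 and 7.37, with 1 line within 0.19.

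STAT3 target genes showed no shift as a list: 11 of 24 lay above the mean of the other lines, with a median difference of -0.04 and none called. Socs3, the feedback inhibitor that STAT3 induces, read 8.18 and 8.32 within an overall range of 7.37 to 9.41. Tns4, an adhesion gene bright in active line 3 at 12.42 and 12.48, was undetected in wild-type line 3 at 6.14 and 6.03. Of IGF genes 3 of 13 lay above the mean of the other lines, with a median difference of -1.59 from wild-type line 2 and 0.54 from wild-type line 1. They lay above wild-type line 1 in 9 of 13 and above active lines 2 and 3 in 7 each. Igfbp4, an IGF-binding protein, was an exception at 11.93 and 11.89, 0.09 above the nearest line, active line 3. The basal keratin gene Krt14 read 12.38 and 12.45, within the range of the other arrays, and the smooth muscle actin gene Acta2 6.93 on average, near the lower end of a range from 6.03 to 13.94 over the line means.

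**Figure D4:**
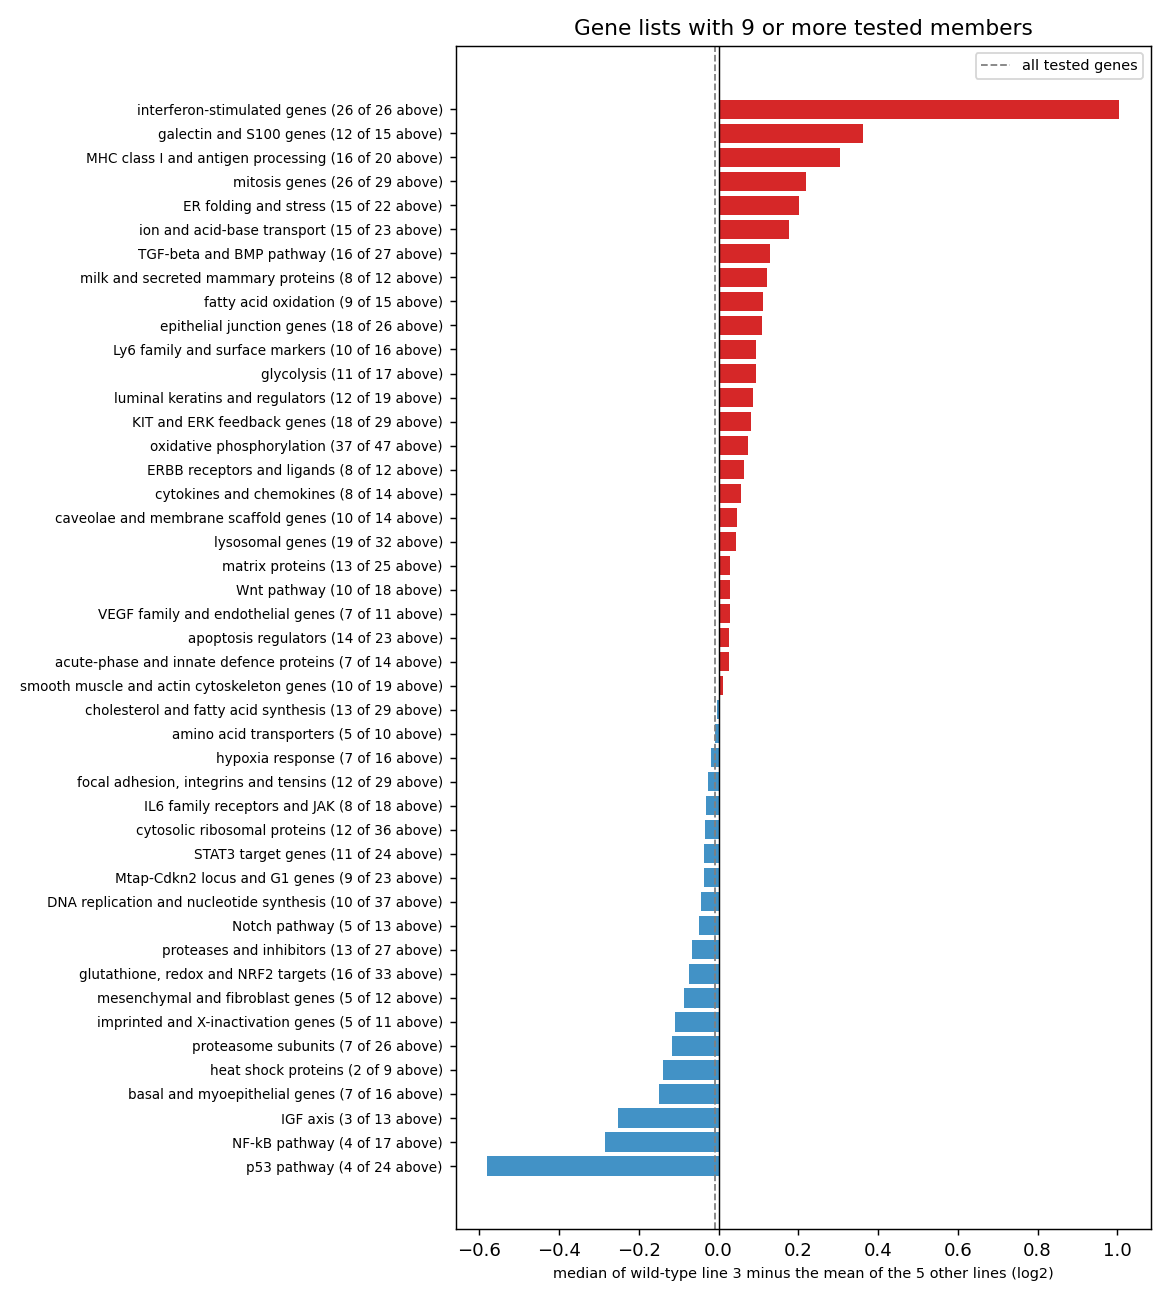
Median difference of wild-type line 3 from the mean of the 5 other lines (horizontal axis, log2 units) over the tested members of each gene list with at least 9 of them, with the count of members above that mean. The bar of interferon-stimulated genes reaches 1.00 and that of the p53 pathway -0.58, and the dashed line marks -0.01 for all tested genes.

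Along the chromosomes, most tested genes at the start of chromosome 4 differed between wild-type line 3 and its nearest line. Gene order came from RefSeq's GRCm38.p6 table, and since the sources used here name no build for the array, no gene coordinates are printed for it. Of the first 100 tested genes of that chromosome, from Cd99 to Tmem38b, 89 were lower in wild-type line 3 than in active line 2 at an adjusted p under 0.05, against 8.73% of the other placed genes. The median difference over them was -0.77. Against wild-type line 1 it was -0.03, and against wild-type line 2, active line 1 and active line 3 it was -0.19, -0.26 and -0.16. Of these 100 genes, 41 had their lowest mean in wild-type line 3, against 13.2% of the other genes. The genes Rngtt, Map3k7, Rusc2 and Trp53inp1 of this stretch were called lower than in each line (4%), against 0.677% of the other placed genes. Rngtt, the mRNA capping enzyme, read 7.20 and 7.38 against 7.85 to 8.51 with a median of 8.02. Map3k7, the kinase TAK1, was 0.35 below the nearest line by the probe used, while a second kept probe lay 0.03 below the mean of the other lines and above wild-type line 2 and active line 3. On chromosome 14 the median difference was 0.43 against active line 1 and 0.18 against wild-type line 2. It was only -0.044, 0.02 and -0.005 against wild-type line 1, active line 2 and active line 3. The shift there was thus not particular to wild-type line 3. Its mean was the lowest in 1.82% of 274 genes, against 13.6% of all tested genes.

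**Figure D5:**
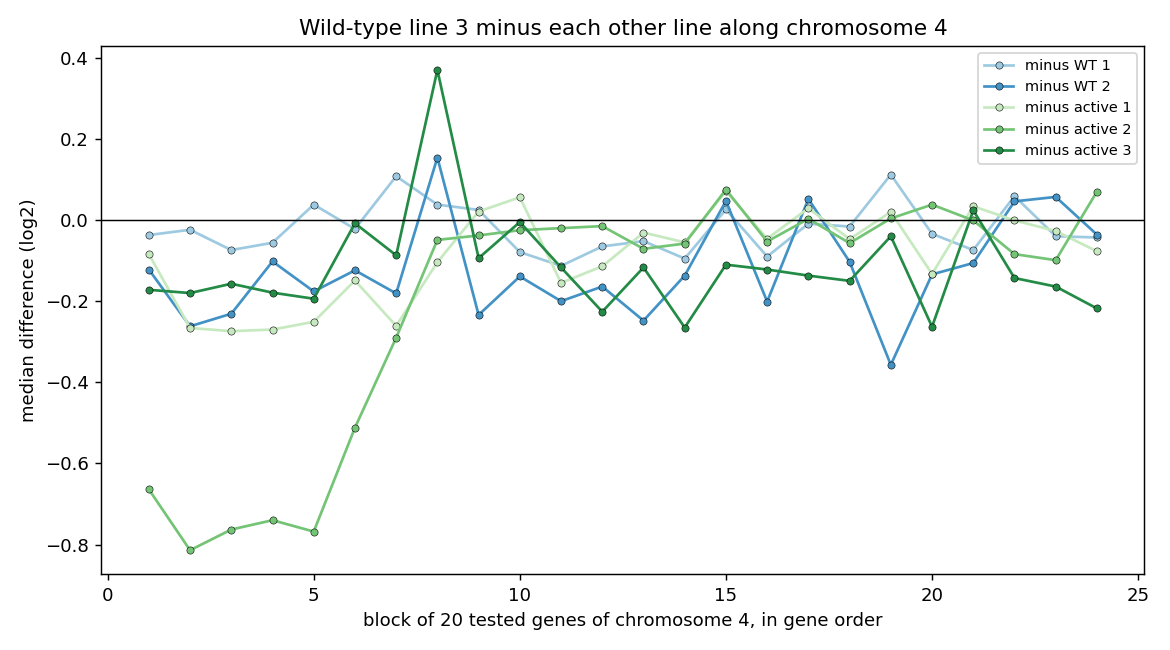
Median log2 difference of wild-type line 3 from each other line (vertical axis) in blocks of 20 tested genes along chromosome 4 (horizontal axis). The difference from active line 2 lies between -0.66 and -0.81 in the first 5 blocks and is -0.05 in block 8, while the other lines lie between -0.27 and 0.04 in those 5 blocks.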

How the data were processed

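Total RNA of 6 cell lines was measured on 2 arrays each. Per the file headers the authors deposited a raw table with a bead intensity and a detection value, a fraction from 0 to 1, for each array and 46632 probes. They also deposited processed log2 values of these arrays, which served as an alternative. BeadStudio 3.1.7 and lumi are named in the submitters' processing notes. Nothing used here states how the deposited log2 values were background-corrected or normalized. The number of arrays limits the precision.

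From the raw table, 1 minus the detection fraction was taken as the detection p-value (Spearman's rho of the fraction with intensity 0.997 to 0.998). The function neqc of limma 3.58.1 (R 4.3.3) then corrected the background from these p-values, added an offset of 16, normalized by quantiles and took log2. Symbols came from the platform annotation: 29976 probes had 1 symbol, 10 had several and 16646 were unnamed here. The kept probe with the highest mean stood for a gene, and 1964 of 7929 genes had more than 1. The offset shrinks differences of dim probes.

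Arrays of a line were averaged for the comparison of 1 line with 5. The 12 arrays were fitted with 1 mean per line for the 5 contrasts. Both were two-sided moderated tests of limma, adjusted by Benjamini-Hochberg over all tested genes, and were tested on simulated data. For genes undetected on all arrays of a side, folds are bounds against the higher of the lowest detected signal and the probe's own. The text names Stat3, the 12 widest gaps in each direction among the called genes, up to 6 genes detected in 1 line only or in every other line, and from each of 49 lists (1418 symbols) up to 4 called members or the 2 with the largest difference. Other genes, in particular most of the named interferon-stimulated and p53 genes, were chosen after their values were seen. The lists and members were chosen with earlier results of these data known, so no list is independent evidence. The replicate numbers shared by the lines were not used to pair the arrays, and the labels do not say whether a number marks a shared batch. Of 15 pairs of lines, 2 correlated above 0.1 in their array differences (range -0.23 to 0.30), which cannot decide it.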

Additional observations from a re-analysis of the deposited data

Results flagged for a closer look

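Within the 5 other lines, 1 line lay far from the rest in 10 of the 85 genes named above, by the gap of the extreme line mean to the next as a share of the whole range. Chance flags about 1 in 20 genes. Active line 3 was apart in Cldn10 (share 0.957, mean 4.93 against 9.54 to 9.74 in the other 4 lines), Enpp5 (0.825, 8.55 against 9.67 to 9.91), Gpr176 (0.825, 7.58 against 6.10 to 6.36) and Abcc1 (0.771, 6.24 against 5.84 to 5.93). Wild-type line 1 was apart in Chst1 (0.854, 9.81 against 7.84 to 8.13) and Krt14 (0.718, 7.51 against 11.23 to 12.69). Wild-type line 2 was apart in Cd74 (0.847, 8.01 against 4.83 to 5.32). Active line 1 was apart in H2-Q6 (0.748, 7.88 against 8.91 to 9.26). Active line 2 was apart in Ccng1 (0.811, 11.22 against 12.52 to 12.82) and Rngtt (0.718, 8.42 against 7.89 to 8.04). In Ccng1 wild-type line 3, at 11.81, lay between active line 2 and the others. In Abcc1, Cldn10, H2-Q6, Enpp5, Gpr176, Chst1 and Rngtt it lay outside the range of all 5 lines. This follows from their call in the comparison with each line and is no further result. In Cd74, which was not called and was undetected in wild-type line 3, its mean was 4.77 against a lowest of 4.83.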

How the results depend on the processing

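In the comparison of 1 line with 5, where no gene passed, the count was 1 with a filter of detection in at least 3 lines, 3 with line as a random block, 3 with that block and the replicate block together, 4 with 12 arrays taken as independent and 1 with a trend in the prior variance. Leaving out a line or an array gave 0 to 1. The genes apart from each line (42 higher, 57 lower) fell to 15 and 11 with median scaling, of which 10 and 9 were among the original calls. They were 25 higher with detection on all 12 arrays, and 5 and 4 with a gap over 1 log2 unit. Leaving out a line or an array gave 15 to 167 higher and 20 to 189 lower. They were 167 and 189 without active line 2, 78 and 108 without wild-type line 1, 68 higher without active line 3, 15 and 20 without array 1 of wild-type line 3, 20 and 28 without its array 2, 32 lower without array 1 of active line 2 and 68 higher without its array 2. With the replicate block the counts were 43 and 51, and the labels do not say whether the array numbers pair the arrays. The alternatives on each array of active line 2, on unnamed probes and on the lists were chosen after seeing the data. With leave-outs, the lowest and highest counts were 7 and 23 for interferon-stimulated genes highest of the lines, 8 and 14 for p53 genes lowest, and for genes highest 5 and 10 in MHC class I, 8 and 13 in mitosis and 6 and 14 in oxidative phosphorylation. With median scaling 3 MHC class I genes were highest and 23 oxidative phosphorylation genes lay above the mean. The sign turned for 2 other probes of Pdxdc1, at 0.223 and 0.544. By other kept probes 6 further differences moved by more than the spread, among them Cyp2d22 at -0.146 and Map3k7 at -0.034. The cause of these changes was not tested. Signal near background limits the genes undetected in a line to bounds.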
